A study of Mus musculus with 7 samples.

Results

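The genes described here are 35 genes of glycolysis and of the response to low oxygen, chosen by name: every row of the deposited count table whose gene symbol was on the list was taken. All 35 symbols were found, on 36 of the table's 57180 rows, and all 35 were among the 15838 genes with enough counts to test. They were measured by bulk RNA sequencing in regulatory T (Treg) cells, a class of CD4 T cells that holds other immune cells in check and whose identity rests on the factor FOXP3. The cells were sorted from B16-F0 tumours, a transplantable mouse melanoma, into 3 FOXP3-high and 4 FOXP3-low samples. All 7 samples came from mice carrying Foxp3-Cre-YFP, an allele that expresses YFP and Cre recombinase from the Foxp3 gene, with the genotype otherwise labelled WT and no treatment named. The labels give neither the gates of the sort nor the age of the mice. They also do not say whether each sample is its own mouse, and the p-values therefore cover only how far these libraries differ from one another, a spread that may be technical.

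Glycolysis splits glucose into pyruvate and yields ATP without oxygen, and lactate dehydrogenase then turns pyruvate into lactate for export. Pyruvate can instead enter mitochondria, where the pyruvate dehydrogenase complex feeds it to respiration. The transcription factor HIF-1 raises many of these genes when oxygen is low, because the prolyl hydroxylases that mark its HIF-1α subunit for destruction need oxygen to work. Activated and dividing T cells use glycolysis heavily, and Treg cells are known for relying more on respiration than effector T cells do.

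FOXP3-high libraries held 9048771 to 11202260 counts and FOXP3-low libraries 12177761 to 14546999. Levels are in CPM, read counts put on a common library size, with sizes adjusted by TMM, a factor that centres the bulk of genes between libraries. A level of 1 CPM stood for 8.98 to 14.3 counts. Fold changes are log2 values of FOXP3-high over FOXP3-low ± SE from edgeR's quasi-likelihood test, and a gene is called higher or lower where its Benjamini-Hochberg adjusted p over all tested genes is under 0.05. Foxp3 itself was at 647, 808 and 639 CPM in FOXP3-high samples, against 330, 397, 310 and 393 CPM in FOXP3-low samples (log2 fold change 0.97, adjusted p = 7.47e-05), so every library lay on the side its label gives.

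Of the 35 genes, 22 were lower and 2 were higher in FOXP3-high samples, and 11 were not called. Over all tested genes, 24.6% were called lower and 21.8% higher, or 46.5% in either direction. The median log2 fold change was -0.44 over the 35 genes, against 0.012 over all tested genes. In 23 of the genes all FOXP3-high libraries lay below all FOXP3-low libraries, and in 2 they lay above; 26.8% and 23.9% of all tested genes did so. Called genes with a log2 fold change below -1 numbered 6, a class that holds 10.1% of all tested genes. The 21 enzymes from hexokinase to lactate dehydrogenase, Pfkfb3 and Pfkfb4 included, summed to 5227, 4509 and 4728 CPM in FOXP3-high libraries, against 6911, 6586, 6677 and 6765 CPM in FOXP3-low libraries. The plot of fold changes by role shows lower genes in each role class from glucose uptake to lactate export. Slc2a3 and Gpi1 were among the genes of these classes that were not called. Entry of pyruvate into mitochondria held 1 lower gene of 4.

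**Figure D1:**
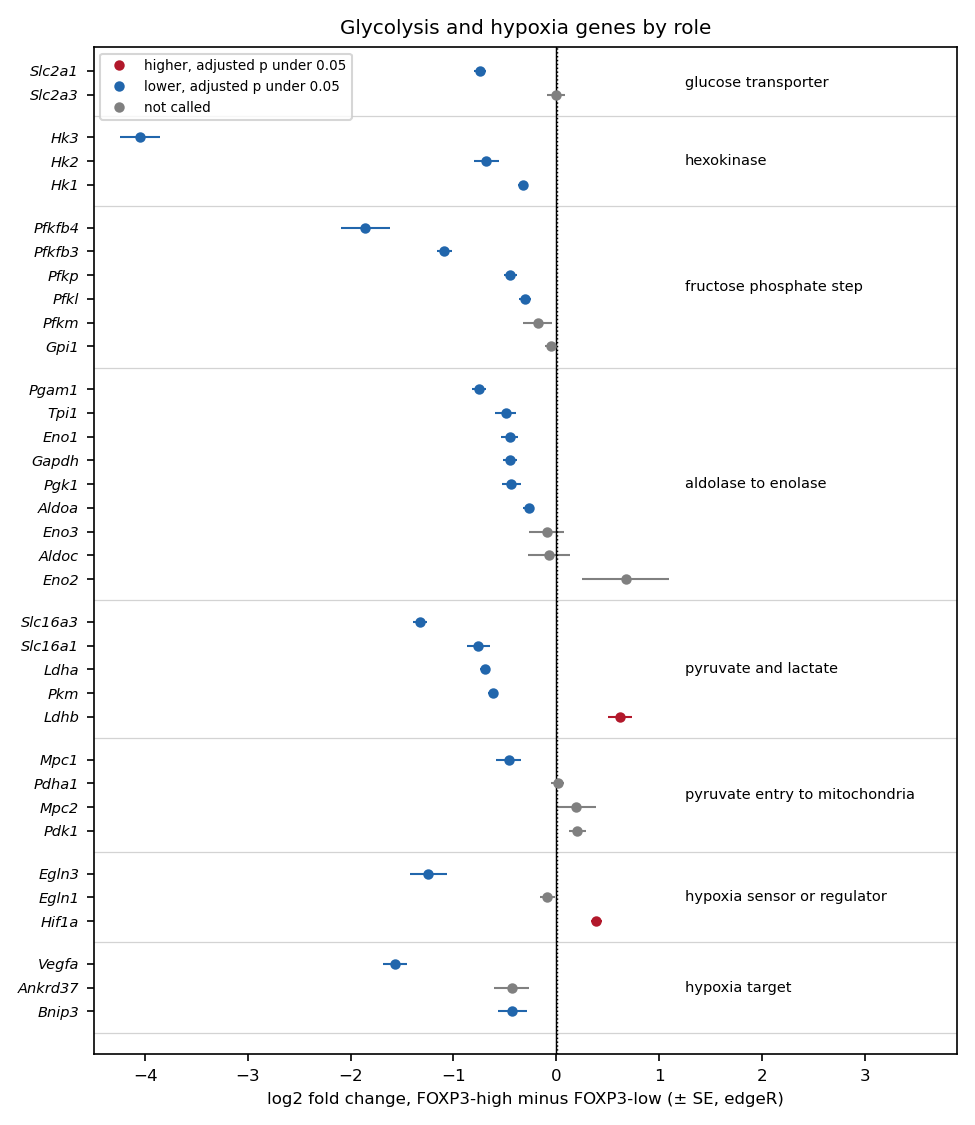
The horizontal axis is the log2 fold change of FOXP3-high over FOXP3-low from edgeR, with bars of ± 1 SE, and each point is 1 of the 35 genes, grouped by role; the dotted line is the median of all tested genes (0.012). Hk3 lies farthest left at -4.05, and Ldhb and Hif1a are the 2 genes called higher; with libraries scaled to T cell identity genes Hif1a turns to -0.095.

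These were bulk samples, in which fewer cells of a type and less RNA per cell cannot be told apart, and markers of other cells moved between the groups. Markers of macrophages and monocytes summed to 750 to 788 CPM in FOXP3-high libraries, against 2850 to 3523 CPM in FOXP3-low libraries, and 17 of 18 were lower, Ccr2 being higher. Those of neutrophils summed to 150 to 293 CPM in FOXP3-high libraries, against 3080 to 3656 CPM in FOXP3-low libraries, with 7 of 8 lower. Neither list had a gene at 0 in every library of a group.

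Dendritic cell markers were lower in 9 of 9 cases and summed to 29.8 to 37.1 CPM in FOXP3-high libraries, against 89.1 to 126 CPM in FOXP3-low libraries. Of 16 cell cycle genes all 16 were lower, at a sum of 1275 to 1474 CPM in FOXP3-high libraries, against 5571 to 6018 CPM in FOXP3-low libraries. In the other direction, melanoma and melanocyte markers summed to 3410 to 4688 CPM in FOXP3-high libraries, against 1406 to 2516 CPM in FOXP3-low libraries, and 10 of 10 were higher. T cell identity genes, which define the sorted lineage, summed to 4483 to 5197 CPM in FOXP3-high libraries, against 3137 to 3610 CPM in FOXP3-low libraries, with 16 of 17 higher, and 7 of 9 Treg markers were higher with 1 lower. Markers of B and plasma cells summed to 92 to 123 CPM in FOXP3-high libraries, against 397 to 527 CPM in FOXP3-low libraries, with 3 of 5 tested lower. Those of CD8 T and NK cells summed to 23 to 34.3 CPM in FOXP3-high libraries, against 52.5 to 73.2 CPM in FOXP3-low libraries, also with 3 of 5 tested lower.

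No marker of endothelial cells (73.6 to 359 CPM in FOXP3-high, 101 to 331 CPM in FOXP3-low libraries), of fibroblasts (26.5 to 494 CPM in FOXP3-high, 55.1 to 638 CPM in FOXP3-low libraries) or of erythroid cells (15.7 to 17.5 CPM in FOXP3-high, 16.3 to 28.4 CPM in FOXP3-low libraries) was called. The part of these cells and of cell division in the changes of glycolysis genes was not tested.

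**Figure D2:**
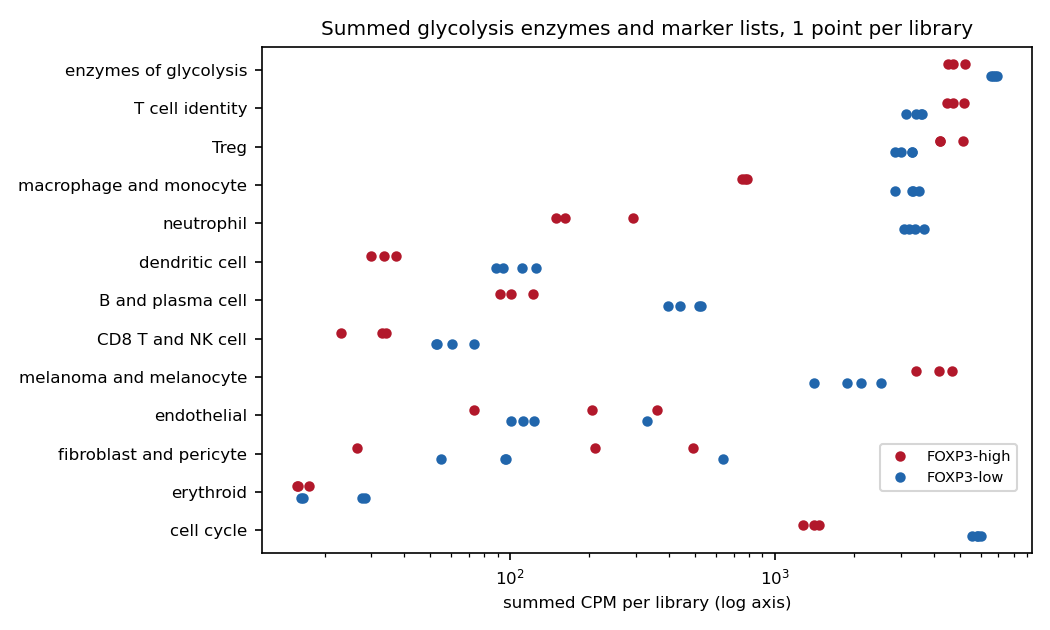
The horizontal axis is the summed CPM of each list on a log scale, with 1 point per library and FOXP3-high above FOXP3-low in each row. Glycolysis enzymes, macrophage, neutrophil, dendritic and cell cycle lists lie lower in all 3 FOXP3-high libraries than in all 4 FOXP3-low libraries, and T cell, Treg and melanoma lists lie higher.

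HIF-1 binds the letters ACGTG or GCGTG, and the stretch before the start of several lower genes holds them, as do those of the 2 higher genes. The sequences below are 80 bases each from the RefSeq promoter windows of the GRCm38.p6 build, 5′ to 3′ on the gene's strand, with every match in capitals (CACGT and CACGC are matches on the other strand, and CACGTG is a pair of overlapping matches on both strands). They were picked after the matches were seen, as examples from 4 genes called lower (Ldha, Slc16a3, Pgk1, Slc2a1) and from the 2 called higher (Ldhb, Hif1a). Ldha and Hif1a each hold a further CACGTG upstream of the stretch shown.
Ldha, called lower, GRCm38.p6 chr7:46845724-46845803, plus strand: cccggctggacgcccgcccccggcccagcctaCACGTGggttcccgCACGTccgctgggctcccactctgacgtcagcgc
Slc16a3, called lower, GRCm38.p6 chr11:120948987-120949066, plus strand: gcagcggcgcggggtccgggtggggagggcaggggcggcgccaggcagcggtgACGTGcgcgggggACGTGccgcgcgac
Pgk1, called lower, GRCm38.p6 chrX:106186931-106187010, plus strand: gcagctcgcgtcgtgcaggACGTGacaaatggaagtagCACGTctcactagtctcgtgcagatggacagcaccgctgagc
Slc2a1, called lower, GRCm38.p6 chr4:119108665-119108744, plus strand: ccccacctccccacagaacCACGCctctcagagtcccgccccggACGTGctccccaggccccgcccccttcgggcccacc
Ldhb, called higher, GRCm38.p6 chr6:142508042-142508121, minus strand: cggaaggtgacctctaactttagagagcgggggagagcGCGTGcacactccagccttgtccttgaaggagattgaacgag
Hif1a, called higher, GRCm38.p6 chr12:73907759-73907838, plus strand: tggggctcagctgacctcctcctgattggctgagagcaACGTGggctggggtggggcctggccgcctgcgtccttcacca
Counted over 250 bases before the start, 31 of the 34 genes with a RefSeq window held ACGTG or GCGTG on either strand (91.2%), against 59.4% of tested genes with a window and 41.5% of the 27018 genes in the RefSeq promoter table. A gene counted if any of its windows matched. Per window the shares were 79.6% for the listed genes and 53.5% for tested genes. The list was chosen by name to hold genes of the low-oxygen response, so the difference in share is no test. Among the genes called lower 21 of 22 held a match, and among the others 10 of 12. The narrower ACGTG was present in 14 of 22 lower genes (63.6%), in 4 of the 12 others (33.3%) and in 24.7% of tested genes. Per window its shares were 50% for lower genes, 29.4% for the others and 21.1% for tested genes. The difference between lower genes and the others was not tested. The palindrome CACGTG, which MYC and related factors also bind, was in 6 of the 34 genes (17.6%) and in 9.57% of tested genes. The median GC content of these windows was 61.6% in the glycolysis and hypoxia genes and 59.2% in tested genes. Within the list it was 62.8% for genes called lower and 56.4% for the others, so the groups differed in base content as well. A match of 5 letters is a description of sequence and was not set against any binding data here.

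Glucose enters T cells chiefly through GLUT1 and GLUT3, the products of Slc2a1 and Slc2a3. Slc2a1 (GRCm39 chromosome 4, 118965908 to 118994527, plus strand) was at 43.4, 42.6 and 41.2 CPM in FOXP3-high samples, against 70, 70.2, 70.7 and 72.4 CPM in FOXP3-low samples. The groups stood well apart and each was tight, with a log2 fold change of -0.74 ± 0.0581 (adjusted p = 7.57e-06). Slc2a3 was at 75.7, 90.2 and 71.1 CPM in FOXP3-high samples, against 84.4, 77.8, 74.4 and 79.3 CPM in FOXP3-low samples. These values overlapped (adjusted p = 0.991), and the estimate for Slc2a3 took either sign under other scalings. Per length, GLUT1 transcripts made up 52.7% ± 2.87 of the pair in FOXP3-high samples and 65% ± 1.29 in FOXP3-low samples (share of summed CPM per kb, SD, n = 3 and 4). Such shares do not depend on how libraries are scaled and were given no test.

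The hexokinases, which trap glucose as glucose-6-phosphate, were all 3 lower. Hk1, the housekeeping form, was at 236, 257 and 249 CPM in FOXP3-high samples, against 304, 302, 321 and 313 CPM in FOXP3-low samples, a small drop without overlap (log2 fold change -0.33 ± 0.0472, adjusted p = 0.000374). Hk2, the inducible form that follows T cell activation and HIF-1, was at 106, 72.6 and 96.6 CPM in FOXP3-high samples, against 146, 132, 155 and 157 CPM in FOXP3-low samples (log2 fold change -0.68 ± 0.12, adjusted p = 0.00125). Every FOXP3-high library of both genes lay below every FOXP3-low library. Hk3, a form known mainly from myeloid cells, was at 5.93, 3.67 and 3.02 CPM in FOXP3-high samples, against 72, 79.8, 66.4 and 64.5 CPM in FOXP3-low samples. Its log2 fold change of -4.05 ± 0.197 (adjusted p = 5.46e-07) was the most negative of the 35 genes, and it moved in the direction of the neutrophil and macrophage sums. Hk3 supplied 2.5% ± 0.839 of hexokinase CPM per kb in FOXP3-high samples and 24% ± 2.61 in FOXP3-low samples. Hk1 supplied 63.8% ± 5.46 in FOXP3-high samples and 45.3% ± 0.7 in FOXP3-low samples, while the share of Hk2 overlapped between the groups.

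**Figure D3:**
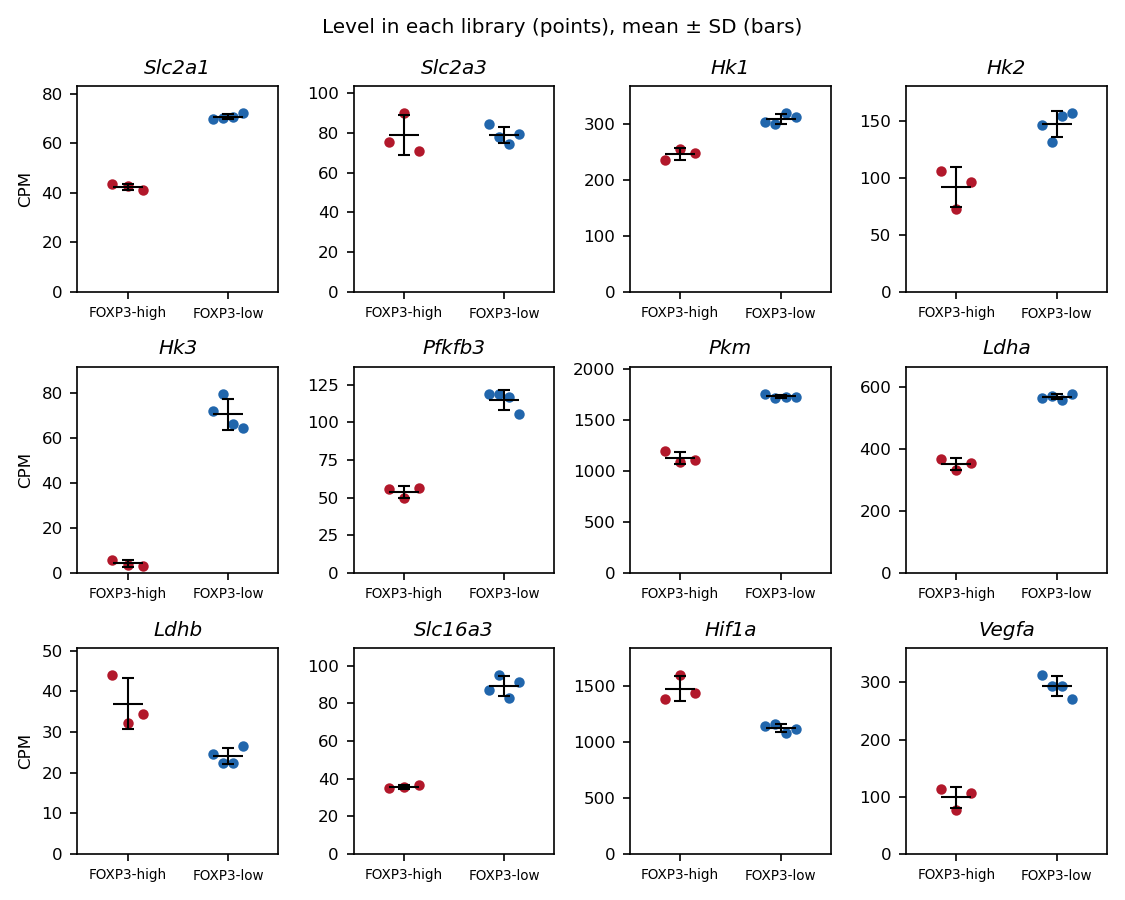
The vertical axes give the level in CPM, each panel is 1 gene, points are libraries and bars are the mean ± SD of 3 FOXP3-high and 4 FOXP3-low libraries. Slc2a3 overlaps between the groups, Ldhb and Hif1a lie higher in FOXP3-high, and the other 9 genes lie lower; with libraries scaled to T cell identity genes Hif1a turns to -0.095 in log2 fold change.

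At the fructose phosphate step, Pfkfb3 and Pfkfb4 are among the enzymes that set the level of fructose-2,6-bisphosphate, the activator of phosphofructokinase. They had larger estimated folds than phosphofructokinase itself, a difference between genes that was not tested. Of the same family outside the list, Pfkfb2 was called higher (log2 fold change 0.52, adjusted p = 0.0223) and Pfkfb1 was not called (adjusted p = 0.729). Pfkfb3, the strongly activating form, was at 55.5, 49.5 and 56.7 CPM in FOXP3-high samples, against 119, 119, 117 and 105 CPM in FOXP3-low samples (log2 fold change -1.09 ± 0.0726, adjusted p = 2.75e-06). Pfkfb4 was at 2.67, 2.78 and 1.79 CPM in FOXP3-high samples, against 8.78, 9.27, 6.45 and 10.5 CPM in FOXP3-low samples (log2 fold change -1.86 ± 0.241, adjusted p = 0.000189). Both stood clear of overlap, and Pfkfb4 was low throughout. Of the 3 phosphofructokinase genes, Pfkp, the platelet form, was at 377, 328 and 356 CPM in FOXP3-high samples, against 521, 462, 466 and 482 CPM in FOXP3-low samples, again without overlap (log2 fold change -0.45 ± 0.062, adjusted p = 0.000281). Pfkl, the liver form, was lower by less (log2 fold change -0.30, adjusted p = 0.00241). Pfkm, the muscle form, was not called (adjusted p = 0.336), and its locus overlaps Senp1 on the other strand, which held 348% as many counts. Gpi1, which makes fructose-6-phosphate, lay at 346, 334 and 311 CPM in FOXP3-high samples, against 354, 331, 333 and 354 CPM in FOXP3-low samples, with overlap (adjusted p = 0.42).

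From aldolase to enolase, the main form of each enzyme was lower and the minor forms were not called. Pgam1, phosphoglycerate mutase, showed the lowest estimate of these steps, at 54.7, 49.9 and 52.4 CPM in FOXP3-high samples, against 90.8, 79.7, 90.1 and 91.6 CPM in FOXP3-low samples (log2 fold change -0.75 ± 0.0713, adjusted p = 2.5e-05). Gapdh, the dehydrogenase that yields NADH and is often taken as a reference gene, was at 276, 222 and 237 CPM in FOXP3-high samples, against 331, 335, 331 and 341 CPM in FOXP3-low samples (log2 fold change -0.45 ± 0.0694, adjusted p = 0.000558). Eno1, the main enolase, was at 810, 637 and 675 CPM in FOXP3-high samples, against 1063, 912, 965 and 934 CPM in FOXP3-low samples (log2 fold change -0.45 ± 0.0851, adjusted p = 0.00183). In each of these genes the highest FOXP3-high library stayed under the lowest FOXP3-low library.

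Pgk1, the first ATP-yielding enzyme, averaged 235 ± 33.5 CPM in FOXP3-high samples and 318 ± 20.6 CPM in FOXP3-low samples (adjusted p = 0.00351). Tpi1, triose phosphate isomerase, had a log2 fold change of -0.49 (adjusted p = 0.00329). Aldoa, the main aldolase, changed least among the called genes here, with a log2 fold change of -0.27 (adjusted p = 0.00246). A second row named Aldoa held 25 counts in all and was not tested. The minor forms Aldoc and Eno3 had adjusted p of 0.817 and 0.7. Eno2, the neuronal enolase, lay between 1.42 and 2.15 CPM in FOXP3-high libraries, against 0.406 to 1.51 CPM in FOXP3-low libraries, and was not called (log2 fold change 0.68 ± 0.421, adjusted p = 0.223). The Gapdh locus overlaps Iffo1 on the other strand, which held 11.7% as many counts. Named copies such as Pgam1-ps2, at 9.18 CPM in FOXP3-high and 15.6 CPM in FOXP3-low samples, and Pgk1-rs7, at 11.7 CPM in FOXP3-high and 15.6 CPM in FOXP3-low samples, may share reads with their parent genes, so the levels of Pgam1 and Pgk1 are uncertain to that extent.

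The last steps, from pyruvate kinase to lactate export, held 4 lower genes and 1 higher gene. Pkm, pyruvate kinase, had the highest level per length of the 35 genes over all 7 libraries, at 226 CPM per kb in FOXP3-high and 347 CPM per kb in FOXP3-low samples, although in FOXP3-high samples Hif1a was above it at 250.4 CPM per kb. In CPM it was at 1198, 1087 and 1104 in FOXP3-high samples, against 1758, 1717, 1731 and 1726 in FOXP3-low samples (log2 fold change -0.62 ± 0.0439, adjusted p = 4.16e-06). Ldha, the lactate dehydrogenase subunit that favours making lactate (GRCm39 chromosome 7, 46490899 to 46505051, plus strand), was at 368, 330 and 352 CPM in FOXP3-high samples, against 565, 569, 558 and 576 CPM in FOXP3-low samples (log2 fold change -0.69 ± 0.0469, adjusted p = 2.96e-06). The FOXP3-low libraries of both genes were nearly equal, and no FOXP3-high library came near them.

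Ldhb, the subunit known for favouring the return of lactate to pyruvate (GRCm39 chromosome 6, 142435975 to 142453669, minus strand), moved the other way. It was at 44, 32.3 and 34.4 CPM in FOXP3-high samples, against 24.6, 22.5, 22.4 and 26.6 CPM in FOXP3-low samples, without overlap (log2 fold change 0.62 ± 0.118, adjusted p = 0.00194). Ldhb made up 18.1% ± 1.76 of lactate dehydrogenase CPM per kb in FOXP3-high samples and 8.19% ± 0.551 in FOXP3-low samples, and ranged from 17.1% to 20.1% in FOXP3-high libraries, against 7.68% to 8.87% in FOXP3-low libraries. The plot of shares shows all 3 FOXP3-high libraries apart from the FOXP3-low ones. With libraries scaled to T cell identity genes the estimate for Ldhb was 0.14 (adjusted p = 0.378), whereas the share is the same under any scaling.

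Slc16a3 encodes MCT4, the lactate exporter that HIF-1 induces (GRCm39 chromosome 11, 120839306 to 120851694, plus strand). It was at 34.9, 35.3 and 36.7 CPM in FOXP3-high samples, against 87.3, 95.1, 83.1 and 91.4 CPM in FOXP3-low samples (log2 fold change -1.32 ± 0.0689, adjusted p = 7.72e-07). Its locus overlaps Csnk1d on the other strand, which held 130% as many counts and had a log2 fold change of -0.039. Slc16a1, which encodes MCT1, carrying lactate in either direction, was at 19, 16 and 16.4 CPM in FOXP3-high samples, against 27.9, 29.4, 25.7 and 33.3 CPM in FOXP3-low samples (log2 fold change -0.76 ± 0.111, adjusted p = 0.000416). Neither transporter overlapped between the groups. MCT1 transcripts were 36.6% ± 2.55 of the pair's CPM per kb in FOXP3-high samples and 28.1% ± 1.61 in FOXP3-low samples.

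**Figure D4:**
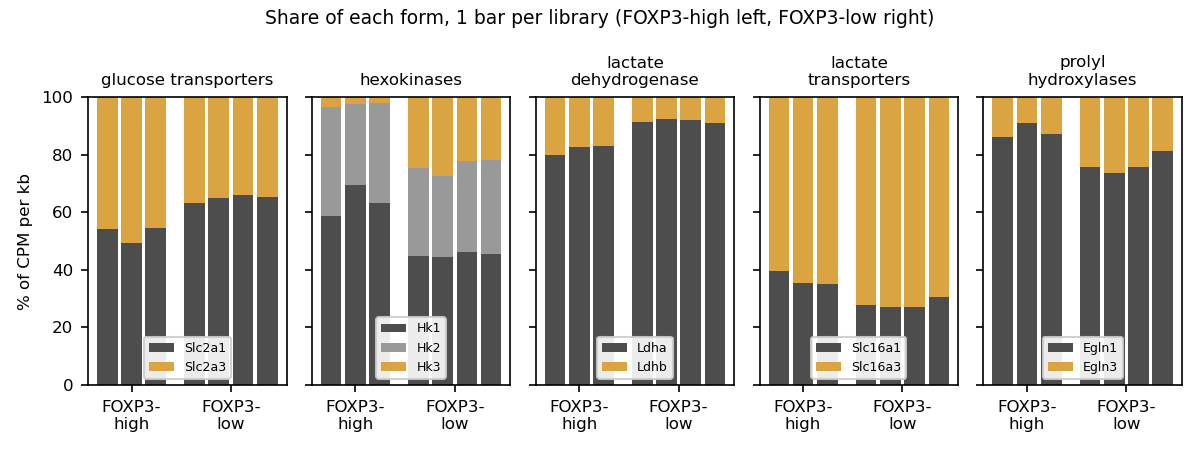
The vertical axis is the share in % of the summed CPM per kb that each form takes, with 1 bar per library and FOXP3-high on the left of each panel. The prolyl hydroxylase panel holds Egln1 and Egln3 only. Ldhb takes 17.1% to 20.1% in FOXP3-high and 7.68% to 8.87% in FOXP3-low libraries, and Hk3 takes 1.78% to 3.42% in FOXP3-high and 21.7% to 27.4% in FOXP3-low libraries.

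The genes that govern the entry of pyruvate into mitochondria had overlapping sums, at 175 ± 4.74 CPM in FOXP3-high samples and 171 ± 8.46 CPM in FOXP3-low samples. Mpc1, a subunit of the mitochondrial pyruvate carrier, was at 11.3, 10.1 and 12.3 CPM in FOXP3-high samples, against 17.1, 15.3, 15.8 and 13.7 CPM in FOXP3-low samples (log2 fold change -0.46 ± 0.122, adjusted p = 0.0116). That was the 1 call here, and without FOXP3-high replicate 2 its adjusted p was 0.05003 by the same test. The antisense gene 4930506C21Rik held 29% as many counts as Mpc1. Its partner Mpc2 was not called (adjusted p = 0.444). Pdha1, the catalytic subunit of pyruvate dehydrogenase, was at 109, 116 and 115 CPM in FOXP3-high samples, against 122, 116, 104 and 107 CPM in FOXP3-low samples, with overlap (adjusted p = 0.895). Pdk1, the kinase that switches that enzyme off and a HIF-1 target, was at 48.5, 40.3 and 46.4 CPM in FOXP3-high samples, against 38.1, 37.4, 39.7 and 41.2 CPM in FOXP3-low samples, with an estimate of 0.21 ± 0.0814 that missed the threshold (adjusted p = 0.0639) and passed it without FOXP3-high replicate 2 (adjusted p = 0.00938).

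Of the hypoxia sensors and regulators, Hif1a, which encodes HIF-1α (GRCm39 chromosome 12, 73948149 to 73994304, plus strand), was at 1387, 1602 and 1440 CPM in FOXP3-high samples, against 1145, 1158, 1084 and 1117 CPM in FOXP3-low samples. It did not overlap between the groups and was called higher, with a log2 fold change of 0.39 ± 0.0539 (adjusted p = 0.000278), but with libraries scaled to T cell identity genes it turned to -0.095 (adjusted p = 0.0971). The antisense gene Gm15283 at the same locus held 24.4% as many counts and had a log2 fold change of 0.39 as well. HIF-1α is controlled mainly as a protein, which these RNA data do not measure. Egln1, the main oxygen-sensing prolyl hydroxylase, was not called (log2 fold change -0.086, adjusted p = 0.356). Egln3, a prolyl hydroxylase that HIF-1 induces, was at 11.6, 6.79 and 10.7 CPM in FOXP3-high samples, against 23.8, 25.8, 23.3 and 19.4 CPM in FOXP3-low samples (log2 fold change -1.24 ± 0.179, adjusted p = 0.000364). Egln3 took 11.8% ± 2.48 of the summed CPM per kb of Egln1 and Egln3 in FOXP3-high samples and 23.4% ± 3.35 in FOXP3-low samples. Egln2, a prolyl hydroxylase outside the list, was not part of this share, at 11.6 CPM per kb in FOXP3-high and 9.27 CPM per kb in FOXP3-low samples.

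Among the hypoxia targets, Vegfa, the main blood vessel growth factor, was at 113, 77.5 and 106 CPM in FOXP3-high samples, against 313, 294, 294 and 271 CPM in FOXP3-low samples (log2 fold change -1.57 ± 0.118, adjusted p = 5.62e-06). All 3 FOXP3-high libraries were far under the lowest FOXP3-low library. Bnip3, a receptor for the removal of mitochondria, was at 87.3, 53.9 and 74.2 CPM in FOXP3-high samples, against 106, 89.9, 93.5 and 97.8 CPM in FOXP3-low samples, a difference close to the threshold (log2 fold change -0.43 ± 0.139, adjusted p = 0.0302). Without FOXP3-high replicate 2 the estimate for Bnip3 was -0.23 (adjusted p = 0.0708), and its call was also lost without FOXP3-high replicate 3 (0.0557) and without FOXP3-low replicates 1 (0.0969), 2 (0.0556) or 4 (0.0800). Ankrd37, a HIF-1 target of little known function, was at 9.11, 8.02 and 8.78 CPM in FOXP3-high samples, against 9.75, 14.2, 9.88 and 12.9 CPM in FOXP3-low samples. It was not called (adjusted p = 0.0614), although its libraries did not overlap, and it passed without FOXP3-low replicate 1 (0.0490) or 3 (0.0364).

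The T cell identity genes were higher in FOXP3-high libraries, so the libraries were also scaled to their median ratio. That moved the median of all tested genes to lower values by 0.48 on the log2 scale, with 52% of tested genes called lower and 5.18% higher. Of the 35 genes 30 were then lower and 0 higher, at a median of -0.92. Hif1a, Pdk1, Pdha1 and Mpc2 changed direction, as the plot of both scalings shows. Against a change of at least 1.5-fold by edgeR's glmTreat, 9 of the genes were lower (10.1% of tested genes) and 0 higher (4.21%).

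**Figure D5:**
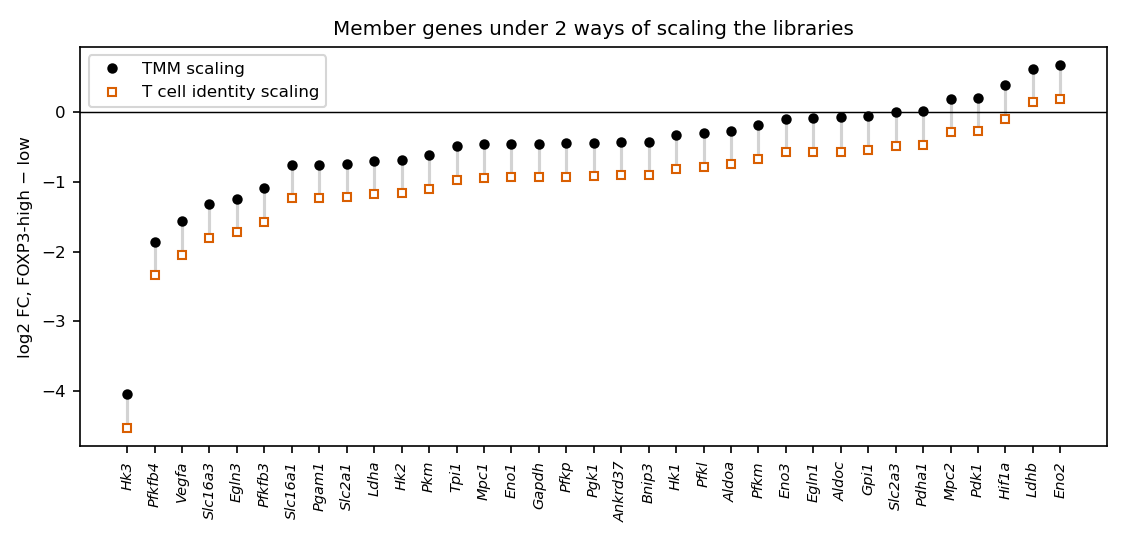
The vertical axis is the log2 fold change of FOXP3-high over FOXP3-low for each of the 35 genes, with TMM scaling as filled points and scaling to 17 T cell identity genes as open squares. Every gene moves down by about the same step, and Hif1a, Pdk1, Pdha1 and Mpc2 pass from above 0 to below it.

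Among 103 other genes of these pathways, 92 had enough counts to test; 23 were lower and 22 higher in FOXP3-high samples, with a median log2 fold change of 0.020, and these counts lie near the 24.6% lower and 21.8% higher of all tested genes. The pentose phosphate pathway, which branches from glucose-6-phosphate to make NADPH and ribose, was lower in 5 of 7 genes and higher in 0, at a median of -0.57. Its genes Tkt, transketolase, at 86.2 ± 0.951 CPM in FOXP3-high and 164 ± 11.4 CPM in FOXP3-low samples (log2 fold change -0.93, adjusted p = 3.04e-06), and Taldo1, transaldolase, at 41 ± 1.52 CPM in FOXP3-high and 74.1 ± 1.84 CPM in FOXP3-low samples (log2 fold change -0.85, adjusted p = 4.2e-06), had the smallest adjusted p of the list. The dehydrogenases Pgd and G6pdx had log2 fold changes of -0.74 and -0.57 (adjusted p = 2.56e-05 and 8.75e-05). The G6pdx locus overlaps Ikbkg on the other strand, which held 120% as many counts and had a log2 fold change of -0.11. The level of G6pdx is uncertain to that extent.

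Other genes around glucose entry and glycolysis went both ways, with 1 lower and 2 higher of 8 tested at entry and 1 lower and 3 higher of 9 tested enzymes. Over all tested genes 24.6% were lower and 21.8% higher. Pgm2l1, which makes glucose-1,6-bisphosphate, was higher at 51.4 ± 1.92 CPM in FOXP3-high and 19.6 ± 2.81 CPM in FOXP3-low samples (log2 fold change 1.38, adjusted p = 6.82e-06). The transporter gene Slc2a6 was lower (log2 fold change -2.78, adjusted p = 4.26e-05), and so was Gpd2, the mitochondrial glycerol-3-phosphate dehydrogenase (log2 fold change -0.83, adjusted p = 8.59e-05). Adpgk, an ADP-dependent glucokinase, Gpd1, the cytosolic glycerol-3-phosphate dehydrogenase, Ldhd, the D-lactate dehydrogenase, and Pfkfb2 were higher, with log2 fold changes of 0.50, 1.09, 1.63 and 0.52 (adjusted p = 0.00086, 0.00196, 0.00506 and 0.0223). The Ldhd locus overlaps Znrf1 on the other strand, which held 2998% as many counts, so its level is uncertain; with T cell identity scaling the estimates for Adpgk and Pfkfb2 were 0.010 and 0.038 and neither was called. Pfkfb2 also lost its call without FOXP3-high replicate 1 (adjusted p = 0.0817). Its locus overlaps Gm29427 on the same strand and Yod1 on the other, which held 58.9% and 81.5% as many counts. Their log2 fold changes were 0.65 and 0.34. The Adpgk locus overlaps Bbs4 on the other strand, which held 29.1% as many counts and had a log2 fold change of 0.72.

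In pyruvate handling 6 of 15 genes were lower and 1 was higher, against 24.6% and 21.8% of all tested genes. Pdk3, a further kinase of pyruvate dehydrogenase, was at 15 ± 2.31 CPM in FOXP3-high and 26.4 ± 2.01 CPM in FOXP3-low samples (log2 fold change -0.81, adjusted p = 0.000403). Slc16a7, which encodes MCT2, had a log2 fold change of -2.75 from a low level (adjusted p = 0.00167), and Dld, a shared subunit of the pyruvate dehydrogenase complex, one of -0.23 (adjusted p = 0.00926). Slc16a6, of the same transporter family, was higher at 0.35 (adjusted p = 0.00692) and turned to -0.13 with T cell identity scaling. Its locus overlaps Amz2 on the other strand, which held 109% as many counts and had a log2 fold change of 0.37.

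Of 10 tested regulators of HIF-1 outside the 35 genes, 4 were higher and 1 was lower, against 21.8% and 24.6% of all tested genes. Arnt2, a dimer partner of HIF proteins, Egln2, a prolyl hydroxylase, and Hif1an, the asparagine hydroxylase that blocks HIF, were higher at 0.52, 0.32 and 0.22 (adjusted p = 0.00342, 0.00552 and 0.0265). Scaled to T cell identity genes, however, Egln2 and Hif1an turned to -0.16 and -0.26. That scaling moved the median of all tested genes down by 0.48, near the size of the Arnt2 estimate. Hif1an lost its call without FOXP3-low replicate 3 (adjusted p = 0.0709), FOXP3-high replicate 1 (0.116) or FOXP3-high replicate 2 (0.0516). Elob, a subunit of the ligase that removes HIF-1α, was lower (log2 fold change -0.46, adjusted p = 0.00124). The Elob locus overlaps Srrm2 on the other strand, which held 3842% as many counts and had a log2 fold change of 0.50. The level of Elob is uncertain to that extent.

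Of 30 further hypoxia targets 7 were lower and 6 higher, shares close to the 24.6% and 21.8% of all tested genes. Hmox1, heme oxygenase, was at 13.6 ± 4.07 CPM in FOXP3-high and 101 ± 15 CPM in FOXP3-low samples (log2 fold change -2.88, adjusted p = 3.32e-06). Mif, a cytokine, and Ddit4, an inhibitor of mTORC1, were lower by smaller steps (log2 fold changes -0.75 and -0.55, adjusted p = 0.000569 and 0.00109). Bnip3l, a relative of Bnip3 with the same function, was higher at 150 ± 6.46 CPM in FOXP3-high and 117 ± 6.44 CPM in FOXP3-low samples (log2 fold change 0.36, adjusted p = 0.000828), and turned to -0.13 with T cell identity scaling.

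Upstream regulators of glycolysis were higher in 6 and lower in 2 of 13 tested genes, against 21.8% and 24.6% of all tested genes. Txnip, which restrains glucose uptake, was at 120 ± 6.91 CPM in FOXP3-high and 68.8 ± 3.95 CPM in FOXP3-low samples (log2 fold change 0.80, adjusted p = 1.01e-05). Mlxip, which encodes the glucose-sensing activator of Txnip, and Tsc2, an inhibitor of mTORC1, were higher too, at 0.63 and 0.58 (adjusted p = 0.00132 and 0.000552). Scaled to T cell identity genes, their estimates were 0.15 and 0.099 and neither was called. The Tsc2 locus overlaps Pkd1 on the other strand, which held 127% as many counts and had a log2 fold change of 1.09. The Txnip locus overlaps Gm15441 on the other strand, which held 45.7% as many counts and had a log2 fold change of 0.85. The levels of Tsc2 and Txnip are uncertain to that extent. Myc, an activator of glycolysis genes in dividing T cells, was at 27.1 ± 1.68 CPM in FOXP3-high and 38.5 ± 2.59 CPM in FOXP3-low samples (log2 fold change -0.50, adjusted p = 0.000826).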

How the data were processed

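RNA was measured in 7 sorted samples, 3 FOXP3-high and 4 FOXP3-low, grouped by the sample titles. The authors deposited whole-number counts per gene, not normalized, with a gene length in bases. The labels' protocols name TRIzol extraction and a stranded mRNA kit, and fastp 0.23.4, STAR 2.5.3a, featureCounts and the builds GRCh38 and GRCm39 are named, per the submitters' processing notes; file coordinates are printed as GRCm39. The strand setting and the handling of multi-mapped and duplicate reads are, in the sources used here, not given, so counts of overlapping or copied genes are uncertain.

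In R 4.3.3, edgeR 4.0.16 kept genes by filterByExpr with the group (minimum count 10, minimum total 15), normalized by TMM and ran the quasi-likelihood test over all kept genes without a block, with Benjamini-Hochberg adjustment at 0.05. SEs were derived as the size of the log2 fold change over the root of the F statistic. CPM per kb used the deposited gene length. The common biological coefficient of variation was 0.178. The steps were tested on simulated data, where they missed most of the known changes of 1.5-fold. Of the known 2-fold changes they missed nearly as many as they found. False calls were more frequent than the 0.05 threshold names. A gene not called may therefore still differ, and calls near the threshold are less firm. Replicate counts differed by more than counting noise in every pair. Alternatives used DESeq2 1.42.0, limma 3.58.1 and others named in the closing section. Promoters came from RefSeq (GRCm38.p6) by symbol, 34 of 35 matched, with no coordinates moved between builds.

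Every listed gene may be named. Library values were given, per role, for the 2 smallest adjusted p and the highest mean CPM, for genes called higher, and for calls that alternatives changed. For other pathway genes, up to 4 per list with the smallest adjusted p under 0.05 were named. Members and lists were chosen with earlier results of these data known.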

Additional observations from a re-analysis of the deposited data

Results flagged for a closer look

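In 35 groups of 4 FOXP3-low libraries, 2 genes had 1 library far from the rest, where chance alone gives about 1 in 20. Pfkfb3 was at 105 CPM in FOXP3-low replicate 4 and at 119, 119 and 117 CPM in the others, a gap of 0.855 of the group's range. Pgam1 was at 79.7 CPM in FOXP3-low replicate 2 and at 90.8, 90.1 and 91.6 CPM in the others, a gap of 0.877. Both gaps are above Dixon's 95% critical value for 4 samples. Both low libraries still lay above every FOXP3-high library, at 49.5 to 56.7 CPM for Pfkfb3 and 49.9 to 54.7 CPM for Pgam1.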

How the results depend on the processing

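The count of 22 lower genes was 21 or 22 with DESeq2 size factors, upper quartile factors, total counts, no filter, a filter of 50 counts in 3 libraries, the DESeq2 Wald test, limma-voom, or leaving out both libraries numbered 3, and 20 to 23 with each library left out. Scaling to T cell identity genes gave 30 lower, 0 higher and a median of -0.92, and glmTreat against 1.5-fold gave 9 lower and 0 higher. The count of 2 higher was 3 with upper quartile factors and 3 with total counts, Pdk1 being the addition, and 2 to 3 with a library left out; the median was then -0.52 to -0.35. Of the 92 other pathway genes tested, T cell scaling called 49 lower and 4 higher, near the 52% and 5.18% of all tested genes. With glmTreat 8 of them were lower and 4 higher, near the 10.1% and 4.21% of all tested genes. Leaving out a library gave 19 to 24 other pathway genes lower and 16 to 21 higher. Of 24 called genes, 9 kept their call in all 18 alternatives and 11 lost it under glmTreat only. The exceptions were Ldhb, Hif1a, Mpc1 and Bnip3; Bnip3 was also lost with upper quartile factors (adjusted p = 0.0515), total counts (0.0815) and both libraries numbered 3 left out (0.0507). Direction turned for genes near 0. For Slc2a3 it was 0.047 with upper quartile factors, 0.064 with total counts, 0.00057 with the stricter filter, 0.040 without both libraries numbered 3, and -0.080 to 0.069 with a library left out. Gpi1 was 0.014 with total counts. Aldoc was 0.14 without both libraries numbered 3 and -0.28 to 0.17 with a library left out, and Eno3 -0.22 to 0.038. Pdha1 was -0.030 without a filter, -0.038 without both libraries numbered 3, -0.035 to 0.073 with a library left out and -0.0083 with the replicate block. T cell scaling turned Pdk1 to -0.27, Pdha1 to -0.47, Mpc2 to -0.28, Hif1a to -0.095, Slc16a6 to -0.13, Egln2 to -0.16, Hif1an to -0.26 and Bnip3l to -0.13. The cause of these changes was not tested.

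The labels do not say whether equal replicate numbers pair samples. Same-numbered samples had correlations of deviations of -0.10, 0.0965 and 0.53, and the value of 0.53, for the replicates numbered 3, was the highest of all pairs. Both libraries numbered 3 also had the highest fibroblast sums of their groups, at 494 CPM in FOXP3-high and 638 CPM in FOXP3-low. Their endothelial sums were the highest of their groups too, at 359 and 331 CPM. The part of these markers in the correlation was not tested. So few libraries cannot decide whether the samples are paired. With the replicate block the counts were 22 lower and 2 higher at a median of -0.44, and 22 and 21 for other pathway genes, where Pfkfb2 and Hif1an were not called. Depth limited the genes under about 3 CPM, such as Pfkfb4 in FOXP3-high samples and Eno2. Few libraries per group, unknown sort gates and unequal levels of other cells' markers limit every comparison.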
